A study of Mus musculus with 28 samples.

Results

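Skeletal muscle fibers contract through sarcomeres, the repeating units of thick and thin filaments, and 10 genes that encode parts of this machinery were followed here through the libraries of a mouse arteriovenous fistula (AVF) study. They were *Myh4*, *Myh1*, *Myh2*, *Myl1*, *Mylpf*, *Acta1*, *Tnnt3*, *Tnni2*, *Atp2a1* and *Ckm*, which were 10 of the 56980 genes in the bulk table and were all in the single-cell tables as well. These genes were chosen by their measured counts in the same bulk libraries, with the contrasts of AVFs against contralateral veins already known. Their own values in those contrasts are therefore a description without a test.

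All mice were C57BL/6 of both sexes and had a subtotal (5/6) nephrectomy before the AVF operation, in which the end of a jugular vein was joined to the side of a carotid artery. Their age was not given. Bulk RNA sequencing covered the outflow veins of 8 early (about 3 days), 5 mid (about 10 days) and 5 late AVFs (about 21 days), and 7 contralateral jugular veins that had no anastomosis but came from nephrectomized mice as well. Each of these 25 libraries held 1 vessel, whereas each of 3 single-cell libraries (contralateral vein, early AVF and late AVF) held a pool of 10 vessels. Libraries are named below by group and replicate number, as in early 10 or vein 34. Total counts per bulk library ran from 20254173 to 67457501. The deepest were early 5 (67457501) and early 6 (53097813), and the other 23 held at most 36879746.

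In a muscle fiber, myosin heavy and light chains form the motor of the thick filament, which pulls on actin in the thin filament when calcium binds the troponin complex. A calcium pump returns the ion to the sarcoplasmic reticulum, and creatine kinase keeps the supply of ATP. Fibers differ in speed by which myosin heavy chain they make, developing and regenerating fibers make embryonic and neonatal chains, and satellite cells are the resident stem cells. The wall of a vein holds smooth muscle, which uses a separate set of contractile genes, and the jugular vein runs through the neck among skeletal muscles. Muscle beside the vessel as a source of these transcripts was not tested.

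The 10 genes lie on 4 chromosomes. In the GRCm38 annotation (GENCODE release M21) the 3 adult fast myosin heavy chain genes stand side by side on the plus strand, *Myh2* at chr11:67171027-67197517, *Myh1* at chr11:67200052-67224575 and *Myh4* at chr11:67238029-67260446. *Mylpf*, *Tnnt3*, *Tnni2*, *Atp2a1* and *Ckm* lie on chromosome 7, *Acta1* on chromosome 8 and *Myl1* on chromosome 1. Exons of other genes on the opposite strand covered 763 of 3477 exon bases of *Atp2a1*, 515 of 6353 of *Myh1*, 451 of 2913 of *Ckm* and 237 of 7137 of *Myh2*, and none of the other 6 genes. Whether the bulk libraries kept strand was not stated.

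The sequences around the start of these genes are shown because most of the genes rose and fell together from library to library. RefSeq promoters (GRCm38.p6, 250 bases before to 50 after the start) were found for 8 of the 10, and the 5 below are those of the most abundant member, of creatine kinase and of the 3 heavy chains. Each is written 5′ to 3′ along its gene. Capitals mark TATAAA, the MEF2 motif and the CArG motif, searched on both strands.
Acta1: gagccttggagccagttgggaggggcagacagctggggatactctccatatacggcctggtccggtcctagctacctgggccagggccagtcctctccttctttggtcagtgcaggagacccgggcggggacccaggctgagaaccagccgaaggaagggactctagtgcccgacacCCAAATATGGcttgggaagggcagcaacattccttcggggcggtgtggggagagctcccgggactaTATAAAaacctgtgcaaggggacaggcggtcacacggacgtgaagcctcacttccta
Ckm: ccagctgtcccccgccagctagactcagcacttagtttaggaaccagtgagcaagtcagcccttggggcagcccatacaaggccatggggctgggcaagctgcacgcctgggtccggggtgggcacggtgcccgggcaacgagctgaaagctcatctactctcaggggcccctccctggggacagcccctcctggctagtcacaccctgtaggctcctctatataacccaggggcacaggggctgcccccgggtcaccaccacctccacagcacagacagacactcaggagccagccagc
Myh4: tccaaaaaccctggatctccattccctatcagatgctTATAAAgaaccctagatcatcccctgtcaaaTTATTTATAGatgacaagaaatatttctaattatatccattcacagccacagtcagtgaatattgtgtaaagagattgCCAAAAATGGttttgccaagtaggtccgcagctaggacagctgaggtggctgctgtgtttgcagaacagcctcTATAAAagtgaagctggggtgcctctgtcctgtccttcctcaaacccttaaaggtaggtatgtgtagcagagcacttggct
Myh1: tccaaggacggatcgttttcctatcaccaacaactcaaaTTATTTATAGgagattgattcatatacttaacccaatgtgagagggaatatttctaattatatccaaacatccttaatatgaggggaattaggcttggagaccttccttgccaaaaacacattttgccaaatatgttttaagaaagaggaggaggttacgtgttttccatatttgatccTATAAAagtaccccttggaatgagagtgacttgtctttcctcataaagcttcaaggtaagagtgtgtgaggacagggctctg
Myh2: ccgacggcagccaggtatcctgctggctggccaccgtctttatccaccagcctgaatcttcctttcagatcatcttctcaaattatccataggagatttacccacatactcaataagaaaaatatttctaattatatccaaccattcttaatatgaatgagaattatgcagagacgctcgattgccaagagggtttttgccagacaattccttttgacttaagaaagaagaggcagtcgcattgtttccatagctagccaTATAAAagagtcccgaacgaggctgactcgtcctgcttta

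These windows are chr8:123894726-123895025 (minus strand) for *Acta1*, chr7:19410844-19411143 for *Ckm*, chr11:67237562-67237861 for *Myh4*, chr11:67199852-67200151 for *Myh1* and chr11:67170777-67171076 for *Myh2* (plus strand). The RefSeq starts are not always the GENCODE gene starts: the *Myh4* window ends before the gene place given above begins, and the *Ckm* window lies within the GENCODE gene. TATAAA was present in 5 of the 8 promoters and in 13.6% of all 32841 promoters of this length. The MEF2 motif was present in *Myh1* and *Myh4* (2 of 8, against 3.19% of all), and each overlapped a TATAAA. The CArG motif was present in *Acta1* and *Myh4* (2 of 8, against 1.63%). The E-box letters CANNTG, which are not capitalized, were present in 6 of 8 and in 72.3% of all promoters. *Myh1* and *Myh2* had no E-box in this window.

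Library quality differed both within groups and between them. Scaling factors for library size by the trimmed mean of M values (TMM) were 0.70 in early 6, 0.76 in early 5, 0.79 in vein 28 and 0.80 in early 3, and 0.92 or more in the other libraries. Between 17514 and 21522 genes had a count in early 3, 5 and 6, against 24033 or more in the other AVFs and 11958 to 18283 in the veins. Mitochondrial counts made up 9.39% of early 3 and at most 4.90% of any other library.

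Levels in CPM, the counts scaled to a common library size, were computed on library sizes scaled by TMM, and 3 counts in a library came to between 0.0588 and 0.187 CPM. Summed over the 10 genes, contralateral veins ranged from 27.7 to 109 CPM with a median of 62.3. Early AVFs ranged from 12.3 to 6043 CPM with a median of 381. The 5 mid AVFs had 850 (mid 13), 1182 (mid 9), 2145 (mid 15), 3422 (mid 14) and 8970 CPM (mid 12), and the 5 late AVFs had 10.9 (late 17), 52.7 (late 24), 965 (late 16), 1711 (late 19) and 11507 CPM (late 23). Thus 13 of 18 AVFs lay above every contralateral vein: all 5 mid AVFs, 5 of 8 early AVFs and 3 of 5 late AVFs. The remaining 5 (early 3, 5 and 7, late 17 and 24) lay within or below the range of the veins. Of the early AVFs with few genes or low scaling factors, early 6 was high (590 CPM), while early 3 (71.3) and early 5 (12.3) were low, and the part of library quality in these levels was not tested. Loss or gain of cells and less or more RNA per cell cannot be told apart in such bulk values, for these genes as for the others below.

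**Figure D1:**
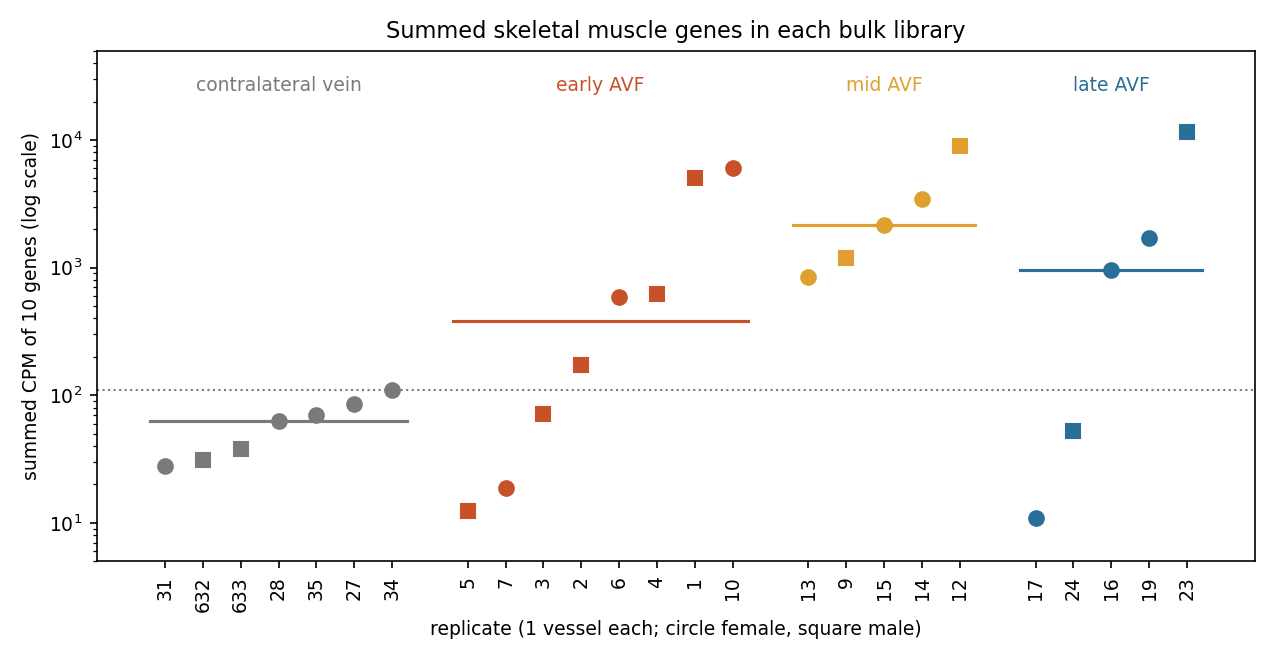
Summed CPM of the 10 genes in each of 25 bulk libraries on a log scale, with 1 point per vessel and a line at the median of each group. The dotted line is the highest contralateral vein (109 CPM), and 5 of 18 AVFs lie below it, and early and late AVFs each span both sides.

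Among AVFs the highest library was 1054-fold above the lowest, whereas the contralateral veins spanned 3.94-fold and the mid AVFs 10.5-fold. The medians rested on few vessels. Leaving out any 1 early AVF put the early median at 172 to 177 (without early 1, 4, 6 or 10) or 588 to 612 CPM (without early 2, 3, 5 or 7). The late median was 510 CPM without late 23 and 512 without late 19. As a share of all counts, the 10 genes took 1.27% in late 23 (exact 95% binomial interval 1.27 to 1.28%) and 0.992% in mid 12 (0.988 to 0.995%), but 0.00110% in late 17 (0.000990 to 0.00123%) and 0.000929% in early 5 (0.000858 to 0.00101%). These intervals cover counting error only, as do all intervals and floors below.

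*Myh4* encodes the heavy chain of the fastest fibers (type 2B). It had 0 to 0.870 CPM in contralateral veins (median 0.0701) and 0 to 229 CPM in early AVFs (median 17.6). In mid AVFs it had 136 (mid 9), 603 (mid 12), 92.4 (mid 13), 207 (mid 14) and 53.7 CPM (mid 15), and in late AVFs 55.2 (late 16), 0.0952 (late 17), 31.4 (late 19), 717 (late 23) and 1.11 CPM (late 24). Every mid AVF, 5 of 8 early AVFs and 4 of 5 late AVFs lay above every contralateral vein. The early median of *Myh4* lay between early 2 (0.932 CPM) and early 4 (34.3 CPM), so it rested on few vessels. Early medians of the genes below likewise lie between neighboring vessels. The fitted log2 fold change over contralateral veins was 8.17 (SE 1.90), 10.21 (SE 2.07) and 9.77 (SE 2.04) for the 3 AVF times in turn. Single libraries moved these values, the late one to 6.86 without late 23 and to 11.39 without vein 27, and females alone gave 6.84. All 3 contrasts share the same 7 contralateral veins, here and for each gene below, so their likeness is not independent.

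*Myh2*, the heavy chain of oxidative fast fibers (type 2A), went the other way in its medians. Contralateral veins had 0 to 82.8 CPM (median 21.5) and early AVFs 0 to 45.6 CPM (median 0.171). Mid AVFs had 1.95, 50.3, 1.05, 24.1 and 6.21 CPM (mid 9, 12, 13, 14 and 15) and late AVFs 2.52, 0.571, 16.7, 97.6 and 0.759 CPM (late 16, 17, 19, 23 and 24). Veins 34 (82.8), 28 (52.2), 27 (31.0) and 633 (21.5) were high and veins 31 and 632 were at 0, so the groups overlapped, and only late 23 lay above every vein. Its log2 fold changes were -2.02 (SE 1.58) for early, -0.69 (SE 1.78) for mid and -0.20 (SE 1.75) for late AVFs, and moved to -4.66 (early, without early 10), -1.67 (mid, without mid 12) and -2.44 (late, without late 23), and to -1.05, -1.62 and -2.28 with females alone. Without vein 34 the early and mid values were -1.40 and -0.07. The late value changed sign to 0.31 with sex as a covariate and to between 0.06 and 0.41 without vein 28, vein 34, late 16, late 17 or late 24.

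*Myh1* encodes the type 2X heavy chain, intermediate in speed. Its medians were 0.250, 3.56, 129 and 77.4 CPM in contralateral, early, mid and late vessels. Vein 27 alone held 31.4 CPM, and the other 6 veins at most 2.24. Per kilobase of exon, the 2 light chain genes were more abundant than *Myh1* in mid AVFs (medians 221 for *Myl1* and 96.3 for *Mylpf* against 20.4). *Myl1*, the alkali light chain of fast fibers, had medians of 10.5, 61.3, 457 and 131 CPM in contralateral, early, mid and late vessels, with a contralateral range of 0 to 65.7 CPM (highest in vein 35). *Mylpf*, the regulatory light chain of fast fibers, was at 0 in 4 of 7 veins, with 2.17 CPM in the highest (vein 633). All 8 early AVFs (2.23 to 474 CPM, median 29.9) and all 5 mid AVFs (39.7 to 339 CPM, median 102) lay above that, and 4 of 5 late AVFs did (1.71 to 453 CPM, median 37.6).

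The thin filament was led by *Acta1*, skeletal muscle actin, which had the highest level per kilobase of exon among the 10 genes in each of the 15 AVFs with at least 1000 counts of them. Contralateral veins had 0.0351 to 30.9 CPM (median 1.52) and early AVFs 0.509 to 2685 CPM (median 159). Mid AVFs had 441, 3818, 336, 1411 and 916 CPM (mid 9, 12, 13, 14 and 15) and late AVFs 407, 3.27, 807, 5044 and 21.0 CPM (late 16, 17, 19, 23 and 24). The vein at 30.9 CPM was vein 632, in which 7 of the 10 genes were at 0. All mid AVFs, 5 of 8 early and 3 of 5 late AVFs lay above it. Log2 fold changes were 6.91 (SE 1.73), 7.89 (SE 1.85) and 7.75 (SE 1.84) in early, mid and late AVFs. Without vein 632 they were 8.73, 9.72 and 9.58, and the late value was 5.66 without late 23. With females alone the early value was 9.25.

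The other members of the thin filament were 2 troponin genes. *Tnnt3*, the fast troponin T that holds the complex on tropomyosin, had medians of 0.175, 23.6, 192 and 70.1 CPM in contralateral, early, mid and late vessels. *Tnni2*, the fast inhibitory subunit, had 1.02, 17.6, 68.9 and 38.0 CPM. For each, the same number of AVFs lay above every vein as for *Acta1*: 5 early, 5 mid and 3 late. The highest vein held 9.11 CPM of *Tnnt3* (vein 34) and 6.00 CPM of *Tnni2* (vein 28).

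*Atp2a1* encodes the calcium pump of the fast sarcoplasmic reticulum. It had 0 to 0.910 CPM in contralateral veins (median 0.187) and 0 to 313 CPM in early AVFs (median 10.7). Mid AVFs had 106, 757, 85.1, 304 and 134 CPM (mid 9, 12, 13, 14 and 15) and late AVFs 99.8, 0.476, 144, 1047 and 3.30 CPM (late 16, 17, 19, 23 and 24). Late 17 was within the range of the veins and late 24 above it, as were all mid AVFs and 5 of 8 early AVFs. Log2 fold changes were 8.01 (SE 1.82), 9.89 (SE 1.98) and 9.79 (SE 1.97), and the late value fell to 7.69 without late 23 and to 7.67 with females alone.

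*Ckm*, muscle creatine kinase, serves the energy supply. The 7 contralateral veins held 8 counts in all, 3 veins were at 0, and the highest had 0.105 CPM (vein 35). Early AVFs had 0 to 192 CPM (median 6.68). Mid AVFs had 51.8, 233, 32.6, 116 and 47.3 CPM (mid 9, 12, 13, 14 and 15) and late AVFs 46.6, 0.159, 68.8, 451 and 0.759 CPM (late 16, 17, 19, 23 and 24). Every mid and late AVF and 6 of 8 early AVFs lay above every vein. *Ckm* in late 17 rested on 5 counts, and its level there was below the 0.187 CPM that 3 counts made in vein 28. Its log2 fold changes were 9.92 for early, 10.89 for mid and 11.13 for late AVFs (SE 1.98, 2.06 and 2.08), and the late value fell to 9.13 without late 23.

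**Figure D2:**
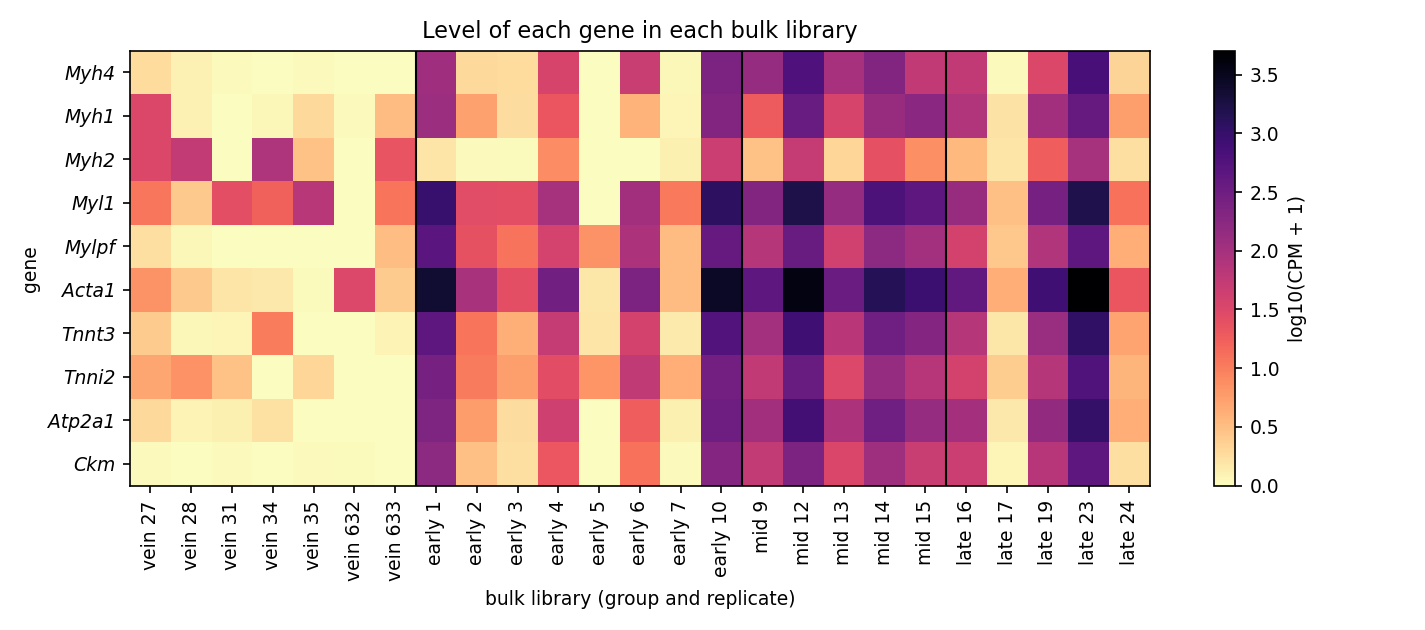
Level of each of the 10 genes (vertical axis, ordered by role) in each bulk library (horizontal axis), as log10(CPM + 1) in color. Early 1 and 10, mid 12 and late 23 are dark across the fast fiber genes, early 5 and 7 and late 17 are pale, and *Myh2* is visible in 4 contralateral veins.

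All 10 genes passed the filter on low counts (12673 genes did), but their high AVF levels alone could carry them through it. In the fit across all genes (edgeR, with a call needing an adjusted p under 0.01 and a log2 change of 1 or more either way) 7 of the 10 were called higher in early AVFs, against 6.17% of all genes called higher and 6.45% lower. The same count, 7 of 10, was called higher in mid AVFs, beside 2.74% of all genes, with 3.31% of all genes lower. Late AVFs gave 7 of 10 once more, beside 2.49% of all genes higher and 2.85% lower, and none of the 10 was called lower at any time. Nothing is read from these counts, since the choice of genes used the same contrasts. With sex as a covariate the counts were 5, 5 and 5, and with females alone 2, 1 and 0. In the main edgeR fit the 3 not called were *Myh1*, *Myh2* and *Myl1* in each contrast. DESeq2 called 8, 8 and 7 of the 10, as did edgeR at an adjusted p under 0.05. The genes whose every AVF lay above every vein numbered 1 of 10 in early (4.47% of all genes tested), 8 of 10 in mid (7.32%) and 1 of 10 in late AVFs (6.25%). The 1 in late AVFs was *Ckm*, which rested on 5 counts in late 17. The 10 genes had a median log2 fold change of 6.66 for early, 7.71 for mid and 7.57 for late AVFs, beside medians over all genes tested of -0.01, -0.10 and -0.09.

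Between AVF times, 0 of the 10 genes were called by edgeR in any of 3 contrasts, with 0 at an unadjusted p under 0.05, and DESeq2 called 0. Over all genes, 0.00789% were called in mid against early AVFs (1 gene), 3.01% in late against early AVFs (381 genes) and 0% in late against mid AVFs. In the same order, 1614, 2016 and 39 of all genes had an unadjusted p under 0.05, and DESeq2 called 474, 753 and 1. The members' log2 differences were 0.18 to 2.04 for mid against early AVFs, -0.14 to 1.83 for late against early and -0.61 to 0.50 for late against mid, with SE between 1.21 and 1.89. Early AVFs spanned 492-fold and late AVFs 1054-fold in the summed level, and an order of the 3 AVF times was not detectable. The all-gene counts rested on single libraries: mid against early rose from 1 gene to 224, 177, 236 or 305 without early 1, 2, 4 or 10 and fell to 0 without vein 34, 35, 632 or 633, early 3, 5, 6 or 7, mid 9, 12, 13 or 14 or late 16, 17, 19 or 23. Late against early fell from 381 to 186, 156 or 206 without early 3, 5 or 6 and to 32, 34, 40, 151 or 41 without late 16, 17, 19, 23 or 24.

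Sex did not separate high from low libraries. Among early AVFs the highest of 3 females had 6043 CPM and the lowest 18.8, while 5 males ran from 12.3 to 5054 CPM. Late females ran from 10.9 to 1711 CPM, and the 2 late males had 52.7 and 11507 CPM. A test of the 3 sex by group terms together (edgeR, adjusted over all genes tested) found 0 of 10 genes at an adjusted p under 0.05 and 0 at an unadjusted p under 0.05, and 13 of all 12673 genes at the adjusted threshold. The likelihood ratio test of DESeq2 also found 0 of the 10 at the adjusted threshold (145 of 12258 over all genes), with 1 (*Tnni2*) at an unadjusted p under 0.05. With so few genes passing, 0 of 10 says little. Without a filter on low counts, 6 of the 10 passed in edgeR (526 of 37829 over all genes), and the cause of that difference was not tested.

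The proportions of the 10 genes differed between AVFs, by the smallest ratio for *Acta1*. Among the 15 AVFs with at least 1000 counts of them, a minimum chosen after the values were seen, *Acta1* made up 36.3 to 55.9% of their summed CPM per kilobase (median 50.9%). *Myl1* followed with a median of 15.4% (11.8 to 27.2%), *Mylpf* with 9.96% (6.63 to 23.3%), *Tnnt3* with 9.30% (4.51 to 11.3%) and *Tnni2* with 5.48% (3.93 to 10.5%). *Atp2a1* (3.43%, 0.498 to 5.75%), *Ckm* (1.93%, 0.557 to 3.20%), *Myh4* (1.65%, 0.142 to 3.61%) and *Myh1* (0.951%, 0.126 to 2.44%) were lower, and *Myh2* (0.0743%, 0 to 0.370%) was last of the 10 in every one of these libraries. From *Myl1* down, neighbors in this order overlapped in their ranges, and only *Acta1* and *Myh2* kept their rank in all 15. A gene with long transcripts can lose reads at one end, so shares between genes of unequal length are approximate.

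As a description of how each gene tracked the other 9, the Pearson correlation of log2(CPM + 1) over 25 libraries was 0.990 for *Atp2a1*, 0.989 for *Ckm* and 0.984 for *Tnnt3*. It was 0.912 to 0.972 for *Myh4*, *Tnni2*, *Acta1*, *Mylpf*, *Myh1* and *Myl1*. *Myh2* stood apart at 0.357, and rose to 0.783 over the 18 AVFs alone. The libraries differ in depth and share their groups, so no p is given.

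Among the contralateral veins the mix was another one. *Myh2* and *Myl1* held most of the counts, 4127 and 3367 summed over 7 veins, with 1025 of *Acta1* and 894 of *Myh1* after them. *Ckm*, *Myh4*, *Atp2a1* and *Mylpf* held 8, 30, 47 and 83 counts. Single veins gave most of the counts of *Acta1* (788 in vein 632), *Myh1* (793 in vein 27), *Myl1* (1873 in vein 35), *Tnnt3* (201 of 251 in vein 34), *Mylpf* (63 in vein 633) and *Myh4* (22 in vein 27), and vein 34 gave 1827 of those of *Myh2*, so the summed counts depend on single veins. *Myh2* had the most counts in veins 28, 34 and 633, *Myl1* in veins 31 and 35, *Acta1* in vein 632 and *Myh1* in vein 27. Per kilobase of exon the median over veins was 5.04 CPM for *Myl1* and 3.02 for *Myh2*.

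The myosin heavy chains were compared per kilobase of exon in libraries with at least 300 counts of 6 heavy chain genes, a minimum chosen after the values were seen. To the 3 adult fast chains were added *Myh7* (slow fibers and heart), *Myh3* (embryonic) and *Myh8* (neonatal). In 13 AVFs *Myh4* took 5.03 to 94.5% (median 46.7%), *Myh1* 5.30 to 56.7% (median 30.3%) and *Myh2* 0 to 7.87% (median 1.84%). *Myh7* was at most 1.17%. *Myh3* had a median of 4.82% and *Myh8* of 7.46%.

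**Figure D3:**
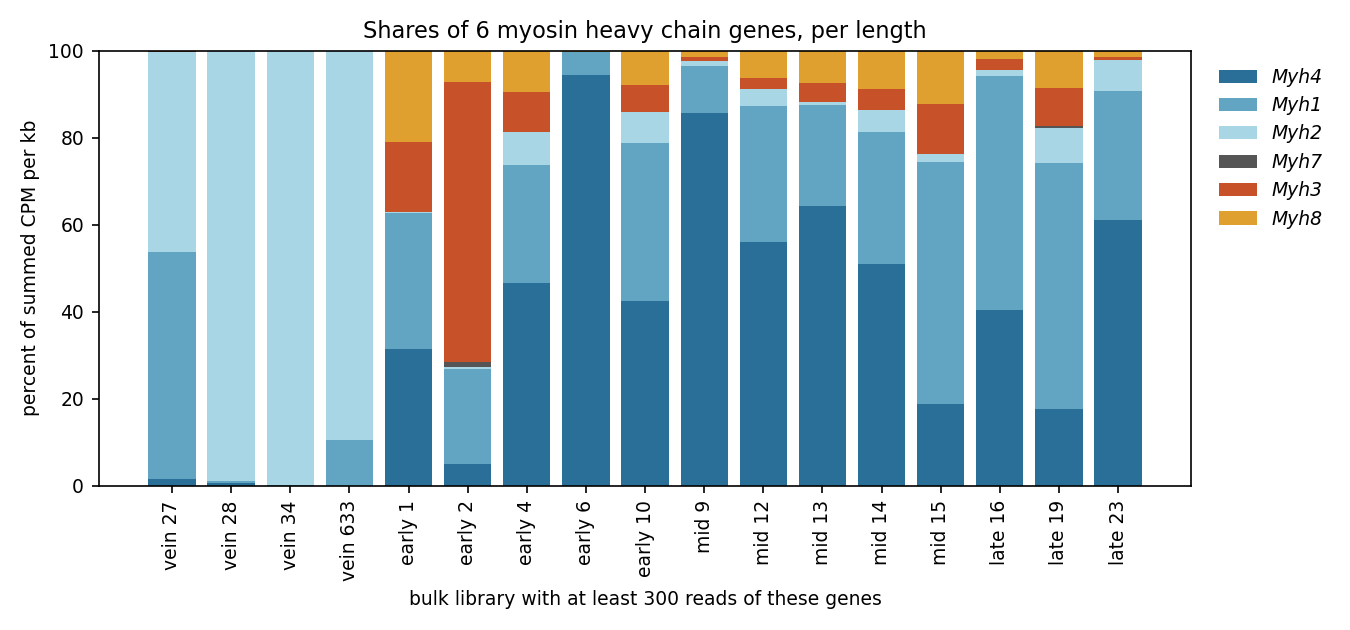
Shares of 6 myosin heavy chain genes in their summed CPM per kilobase, for the 4 contralateral veins and 13 AVFs with at least 300 counts of them. *Myh2* fills 89.4% or more of veins 28, 34 and 633, whereas *Myh4* and *Myh1* lead in most AVFs and *Myh3* leads in early 2.

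The libraries differed in this mix. Early 2 had 64.5% *Myh3*, from 521 counts of the 6 genes, and early 1 had 16.1% *Myh3* and 21.1% *Myh8*. Early 6, mid 9 and late 23 had 0 to 1.00% *Myh3* and 0.218 to 1.40% *Myh8*, with *Myh4* at 94.5, 85.7 and 61%. Veins 28 and 34 had 98.9 and 99.8% *Myh2*, and vein 27 had 52.3% *Myh1* and 45.9% *Myh2*. The 5 genes of this family on chromosome 11 resemble each other in sequence, and reads that fit several of them may have been dropped or shared out in a way that the deposited table does not show.

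Other genes of muscle were read from lists drawn up with earlier results of these data known. Their calls, and those of the lists of other tissues below, are therefore a description and not independent support. Of 85 further skeletal muscle genes, 60 were tested, and 24 were called higher and 2 lower in early AVFs, 26 higher in mid AVFs and 23 higher in late AVFs (percent of all genes called higher: 6.17, 2.74 and 2.49). Their median log2 fold changes were 3.61, 4.48 and 4.30 (all genes tested: -0.01, -0.10 and -0.09) and were the same with the 3 genes that no vein held set to their lower bound. As for the 10 genes, a high AVF level alone could carry a gene through the filter, so these medians, and those of the lists below, can lean upward and are not compared with those of all genes. The late count fell to 15 without late 19 and to 7 without late 23, and with females alone the counts were 5, 2 and 2. Between AVF times edgeR called none (1, 1 and 0 at an unadjusted p under 0.05 in mid against early, late against early and late against mid AVFs), DESeq2 called none, and leaving out early 10 gave 1 in late against early AVFs. Of the 85 genes, 19 had a median of at least 1 CPM in contralateral veins, as had 1 of the 26 genes called higher at any time.

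By role, 9 of 19 other fast sarcomere genes tested were called higher in early and in mid AVFs and 8 in late AVFs, with median log2 fold changes of 5.24, 6.74 and 6.21 (late count 4 without late 23). The giant spring *Ttn* was the most abundant, with medians of 2.61, 48.2, 369 and 103 CPM in contralateral, early, mid and late vessels, but missed the threshold in each contrast. Its adjusted p by edgeR was 0.0197 for early, 0.0121 for mid and 0.0194 for late AVFs, at log2 fold changes of 5.24, 6.74 and 6.21 (higher than every vein in 5 of 8, 5 of 5 and 3 of 5 AVFs). *Neb*, the thin filament ruler, was above every vein in 4 of 8 early, 5 of 5 mid and 4 of 5 late AVFs. *Myom1*, of the M band, was below every vein in 8 of 8 early AVFs (edgeR adjusted p 8.74e-05, log2 fold change -2.39, SE 0.40). It had 86.0 to 270 CPM in veins and was not called with females alone. *Tnnc2*, the fast troponin C, had at most 0.212 CPM in any library, and 592 of its 800 exon bases are covered by *Ube2c* on the opposite strand.

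Of 10 excitation and calcium genes tested, 5 were called higher in early and 6 in mid and late AVFs (median log2 fold changes 6.39, 7.67 and 6.57; 6.14, 7.67 and 6.57 with the 2 genes that no vein held at their bound), and the late count was 1 without late 23. The calcium buffer *Pvalb* had at most 0.613 CPM in any vein and medians of 2.08, 62.2 and 22.5 CPM in early, mid and late AVFs. The pump regulator *Sln* was the most abundant and was not called, with 72.4 CPM in the highest vein and 1451 CPM in mid 12. Its medians were 8.78, 9.59, 81.4 and 6.15 CPM in contralateral, early, mid and late vessels. The log2 fold changes of *Sln* were 0.81, 3.97 and 0.41 for early, mid and late AVFs. Of 12 energy metabolism genes tested, 2, 3 and 3 were called higher (median log2 fold changes 1.41, 1.85 and 2.01). They were *Mb*, the oxygen store, and *Ampd1*, a deaminase of AMP, at each time, and adenylate kinase *Ak1* in mid and late AVFs. The early count was 4 without vein 35 and 1 without early 1, early 10 or late 23, and the late count was 0 without late 23. No vein held a count of *Ampd1*, which was at least 8.19, 8.60 and 8.27 log2 units higher in early, mid and late AVFs with 3 counts over the veins as the floor.

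Slow fiber genes gave 1 call in each contrast, *Tnni1* (slow troponin I; log2 fold changes 8.73, 8.85 and 7.10), of 6 tested, and *Casq2* was called lower in early AVFs (-2.76). The median of the 6 was 3.20, 3.70 and 2.17. Without vein 35 the count of slow fiber genes called higher was 4 at each time. *Casq2* was no longer called without vein 27, 34, 35 or 632, early 2, 3, 4, 5, 6 or 7, mid 12, 14 or 15 or late 16, 17 or 24. It was also not called with sex as a covariate or with females alone. Developing fiber genes had 5 of 10 tested called higher in early and mid AVFs and 4 in late AVFs (medians 4.37, 4.65 and 3.67). They were *Myh3*, *Myh8*, the transcription factor *Myog*, the fusion protein *Mymk* and, in early and mid AVFs, the receptor subunit *Chrnd*. The highest vein held 0.158, 0.235, 0.0791, 0.375 and 0.0791 CPM of these 5 genes in that order of naming. The late count of 4 was 1 without vein 27, 31, 34 or 35 or late 16, 19 or 23, and 2 without vein 28, 632 or 633, early 2, 4 or 10, any mid AVF or late 24. *Myog* had a median of 9.57 CPM among early, 30.3 among mid and 2.85 among late AVFs.

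Of 10 satellite cell genes, 3 were tested, *Myf6* and *Msc* were called higher in early and mid AVFs and *Msc* in late AVFs. The single-cell values of both genes, given below, do not tie these calls to satellite cells. The median log2 fold changes of the 3 were 5.04, 6.51 and 6.34. Other filters on low counts gave up to 8, 8 and 6 satellite cell genes called higher, and females alone gave 0 at each time. The early and mid counts were 1 without early 1, early 10 or any mid or late AVF. The late count was 0 without those same libraries and 2 without early 5, 6 or 7. The defining gene *Pax7* had at most 0.793 CPM in any library, and *Calcr* at most 0.585. *Myod1*, a factor of activated satellite cells, was at 0 in every vein and reached 18.2 CPM in early and 20.3 CPM in mid AVFs. Of 6 denervation and atrophy genes tested, 3 were called higher at each time, *Chrna1*, *Myog* and the ligase *Trim63*, with list medians of 4.69, 5.54 and 3.50 and a late count of 1 without late 19 or 23. *Fbxo32*, another ligase of atrophy, was not called.

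The summed levels of these lists are given as medians of contralateral, early, mid and late vessels, beside 62.3, 381, 2145 and 965 CPM for the 10 genes. Other fast sarcomere genes had 169, 197, 1146 and 385 CPM, excitation and calcium genes 38.5, 70.7, 318 and 94.0 CPM, and satellite cell genes, led by *Myf6*, 1.40, 21.1, 53.3 and 25 CPM. Energy metabolism genes (led by *Ak1*) had 236, 234, 426 and 307 CPM, denervation and atrophy genes (led by *Ncam1*) 129, 132, 230 and 145 CPM, developing fiber genes (led by *Ncam1*) 270, 168, 430 and 173 CPM and slow fiber genes (led by *Casq2*) 151, 43.6, 182 and 37.2 CPM. The veins expressed some genes of each list at a median of at least 1 CPM: 4 of 22, 2 of 17, 1 of 10, 7 of 13, 3 of 8, 4 of 12 and 1 of 11 in that order. Developing fiber genes shared 6 of 12, denervation and atrophy genes 4 of 8, and excitation and calcium genes 1 of 17 with another list.

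Relative to the 10 genes, these markers differed between libraries. For each 1000 CPM of the 10 genes, early 2 held 122 CPM of *Myog*, 168 of *Chrna1* and 2.71 of *Pvalb*. Late 23 held 1.64 of *Myog*, 1.22 of *Chrna1* and 30.1 of *Pvalb*. Early 6 held 17.1 of *Myog*, 6.02 of *Chrna1* and 74.5 of *Pvalb*, and 0 *Myh3*. The 8 AVFs above 1000 CPM in the sum had between 1.64 and 15.0 CPM of *Myog* per 1000.

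Lists of other tissues were read in the same libraries. Of 7 cardiac genes tested, *Sbk2* was called higher in mid and late AVFs and *Myl7* lower in early AVFs (medians -1.58, -1.41 and -1.37). At each AVF time *Sbk2* was highest in the library highest in the 10 genes (26.3 CPM in early 10, 21.0 in mid 12 and 47.1 in late 23). In AVFs *Myl7* had at most 0.134 CPM and *Mybpc3* at most 1.62 CPM. At an adjusted p under 0.05, 3 cardiac genes were called lower in early AVFs. The call of *Myl7* was lost without vein 31 or 35, and with the low-count filter of edgeR's filterByExpr. That of *Sbk2* was lost without any 1 of the 6 veins other than vein 27, without late 16 or 19, and also without late 23 in late AVFs or early 1, 2 or 4, late 17 or any mid AVF in mid AVFs, and 1 cardiac gene was called higher in early AVFs without vein 27 or early 3, 5 or 6 and 1 lower in mid AVFs without vein 27, 28, 34, 632 or 633. *Myl7* and *Mybpc3* were high in the same 2 veins, with 56.7 and 165 CPM in vein 31 and 83.8 and 22.4 CPM in vein 35, and *Bmp10* was at 0 in all 25 libraries. *Tnnt2*, on the cardiac and the developing fiber list, was not called by edgeR and lay below every vein in 6 of 8 early, 2 of 5 mid and 5 of 5 late AVFs. Of 11 smooth muscle genes tested, 9, 8 and 8 were called lower (medians -2.66, -2.60 and -2.06), and the sum of the list fell from a median of 13305 CPM in veins to 2008 (early), 2485 (mid) and 3055 CPM (late).

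Tendon genes had 3, 2 and 4 of 6 tested called higher (*Egr3* and *Thbs4* at each time, *Tnmd* in early and late AVFs and *Comp* in late AVFs; medians 2.42, 4.07 and 4.92, late count 2 without late 19), and both cartilage genes tested, *Acan* and *Col2a1*, were called higher at each time, with 0 counts in every vein (medians with both at their bound: 7.33, 9.37 and 9.62). Adipocyte genes had medians of -1.0, -1.76 and -1.61 over 11 tested, with 1 called higher (*Ucp1*, early) and *Retn* lower at each time and *Fabp4* in mid and late AVFs (2 lower in early AVFs without early 3, and 4 lower in late AVFs without early 6). Nerve genes had 1 of 8 called higher at each time (*Mag*, not called at any time without late 16, nor in mid AVFs without mid 13), with medians of -0.32, 0.55 and 1.15. Of 5 erythrocyte genes, edgeR called 1 lower in early AVFs (*Alas2*), 0 in mid (4 at an unadjusted p under 0.05, 1 called by DESeq2) and 5 in late AVFs, with medians of -0.55, -1.64 and -3.30. The early count was 0 without vein 31 or 632 or early 1, 2, 5, 6 or 7, and the late count 3 without late 16. Females alone gave 0 erythrocyte genes called lower in early and 0 in late AVFs.

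Group medians of the summed levels of contralateral, early, mid and late vessels were 151, 37.5, 172 and 40.0 CPM for cardiac genes (led by *Actc1*), 66.1, 82.4, 503 and 802 for tendon (*Fmod*), 0, 7.82, 27.0 and 33.2 for cartilage and bone (*Acan*), 742, 610, 651 and 1049 for nerve (*Pmp22*), 8850, 1947, 1889 and 1310 for adipocytes (*Car3*) and 5814, 3475, 2625 and 900 CPM for erythrocytes (*Hba-a1*). Medians of at least 1 CPM in veins were found for 5 of 14 cardiac, 4 of 8 tendon, 0 of 8 cartilage and bone, 6 of 8 nerve, 9 of 12 adipocyte and 5 of 5 erythrocyte genes, 11 of 12 smooth muscle genes, 3 of 9 salivary genes and 0 of 9 genes of the thyroid and parathyroid. Genes with at most 1 CPM in any library included *Myh7b*, *Matn1*, *Bglap*, *Pax8* and *Smgc*. Another list held 4 of the cardiac genes and 1 of the smooth muscle genes.

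The parathyroid hormone gene *Pth* reached 14038 CPM in early 1, 1610 in mid 12 and 5313 in late 19, against at most 10.8 in veins. Early 1 and mid 12 were also among the 4 libraries highest in the 10 genes, while early 10 and late 23, the other 2, held 37.5 and 7.00 CPM of the whole thyroid and parathyroid list. Of the 3 genes of that list tested, edgeR called 0 at any time (2, 2 and 2 at an unadjusted p under 0.05), DESeq2 called 0 of the 1 it gave a p for, and the list had medians of 9.96, 7.69 and 9.23 (8.81, 7.52 and 8.38 with *Gcm2* at its bound) and 1 called in early AVFs without late 19. Of 3 salivary genes, edgeR called 0 (0, 1 and 0 at an unadjusted p under 0.05, and 0, 1 and 0 of 2 called by DESeq2), with medians of -1.79, -4.40 and -2.21, and 1 lower without early 7 (early and mid AVFs) or early 6 (mid AVFs). At an adjusted p under 0.05, edgeR called 2 thyroid and parathyroid genes higher in early AVFs. With the low-count filter of filterByExpr, 1, 1 and 2 salivary genes were called higher in early, mid and late AVFs. Salivary genes were highest in early 7 (823 CPM) and late 16 (573 CPM). The part of other neck tissue in these libraries was not tested.

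**Figure D4:**
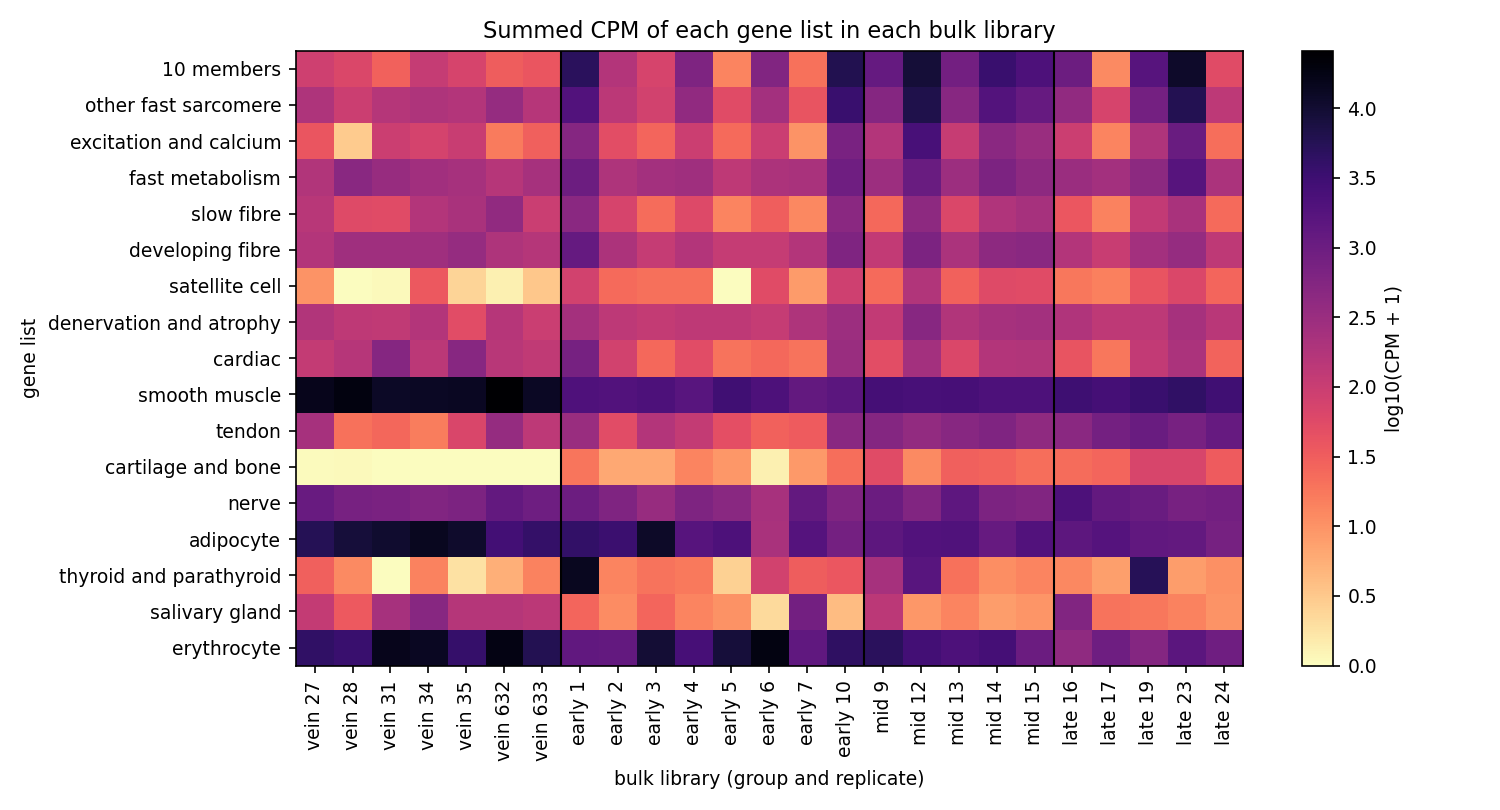
Summed CPM of the 10 genes and of 16 other gene lists (vertical axis) in each bulk library (horizontal axis), as log10(CPM + 1) in color. Other fast sarcomere genes are dark in early 1 and 10, mid 12 and late 23 as the 10 genes are, and the thyroid and parathyroid list is dark in early 1, mid 12 and late 19.

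The genes most like the 10 were ranked among the 12663 others tested by Pearson correlation with their mean log2(CPM + 1) over 25 libraries. The first 15 were *Actn3* (0.977), *Myot* (0.976), *Mybpc1* (0.974), *Pvalb* (0.969), *Myoz1* (0.969), *Neb* (0.961), *Mb* (0.960), *Xirp2* (0.959), *Klhl41* (0.954), *Art1* (0.953), *Klhl31* (0.953), *Casq1* (0.949), *Ttn* (0.947), *Lmod2* (0.944) and *Cacng1* (0.944). Of these, 13 were on the muscle lists, and *Art1* and *Klhl31* were on none. Ranking by Spearman correlation kept 10 of the 15, subtracting group means kept 12 and using the 18 AVFs alone kept 8. After group means were subtracted the first was *Myoz1* (0.964), so the likeness was also present within groups.

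In the single-cell libraries, a barcode was kept if 200 to 6000 genes were seen in it and mitochondrial genes held no more than 10% of its UMIs (unique molecular identifiers), which left 6319 in the contralateral vein, 4753 in the early AVF and 5821 in the late AVF library. Their median depths were 2751, 8951 and 15425 UMIs. Among all barcodes before this step (11563, 7074 and 7801), pairs of libraries shared 19, 14 and 16 sequences. No doublet caller was run, and the high limit on genes was the only step against barcodes of 2 cells. With 1 library per group no test was possible, and intervals are exact.

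The 10 genes had 165 UMIs in the contralateral library, or 5.65 CPM of UMIs (95% Poisson interval 4.82 to 6.58). The early AVF library had 725, or 13.0 CPM (12.1 to 14.0), and the late AVF library 498, or 5.06 CPM (4.63 to 5.52). The level was thus higher in the early library than in the other 2 beyond counting error, and the contralateral and late intervals overlapped. Over all barcodes, before the limits, they did not: the contralateral level was 6.50 CPM (5.74 to 7.34) and the late level 4.95 CPM (4.58 to 5.33). Of the 262 contralateral UMIs over all barcodes, single barcodes removed by the limits held 30 (29 of *Myl1*) and 27 (25 of *Myl1*). The Poisson intervals take each UMI as independent, so they are too narrow where UMIs share a barcode. The spread between libraries of a group could not be measured.

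The 3 heavy chains were almost absent here. *Myh4* had 3, 0 and 0 UMIs in the contralateral, early and late libraries, *Myh1* 2, 0 and 2, and *Myh2* 4, 0 and 1. A count of 0 in the early library allows up to 0.0661 CPM of UMIs. *Tnni2* was the most frequent in both AVF libraries, with 255 and 201 UMIs, and *Myl1* in the contralateral library, with 54. *Acta1* had 6, 116 and 19 UMIs, of which 50 of the 116 came from 1 barcode. *Ckm* had 0, 27 and 23 UMIs and *Atp2a1* 6, 28 and 12.

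A UMI of any of the 10 genes was present in 1.77% of contralateral barcodes (1.46 to 2.13%), 9.89% of early (9.05 to 10.8%) and 6.70% of late barcodes (6.07 to 7.37%). Leukocytes were taken as cells that should lack these genes. Among barcodes with a *Ptprc* UMI the shares were 2.84% (2.12 to 3.73%), 10.9% (9.83 to 12.1%) and 7.15% (6.25 to 8.13%), at median depths of 3538, 10740 and 12129 UMIs. These shares were not below those of all barcodes, so the overall shares do not set muscle cells apart. Some barcodes held several UMIs of a single gene, as a kept late barcode with *Ptprc* did (7 of *Tnni2*, none of the others). Whether the UMIs came from background or from the cells themselves was not tested. Most *Ptprc* barcodes also passed another gate. The 117, 85 and 16 that passed no other had shares of 3.42% (0.939 to 8.52%), 7.06% (2.63 to 14.7%) and 0% (up to 20.6%). Fibroblast, endothelial and smooth muscle gates, which overlap one another since most barcodes hold a UMI of *Col1a2*, *Dcn* or *Pdgfra*, gave shares between 9.76 and 10.6% in the early library and between 6.49 and 6.88% in the late library. With each barcode of at least 2000 UMIs thinned to 2000, a depth chosen after the values were seen, the shares were 0.982, 2.43 and 1.12%, and 1.57, 2.84 and 1.48% in leukocytes.

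**Figure D5:**
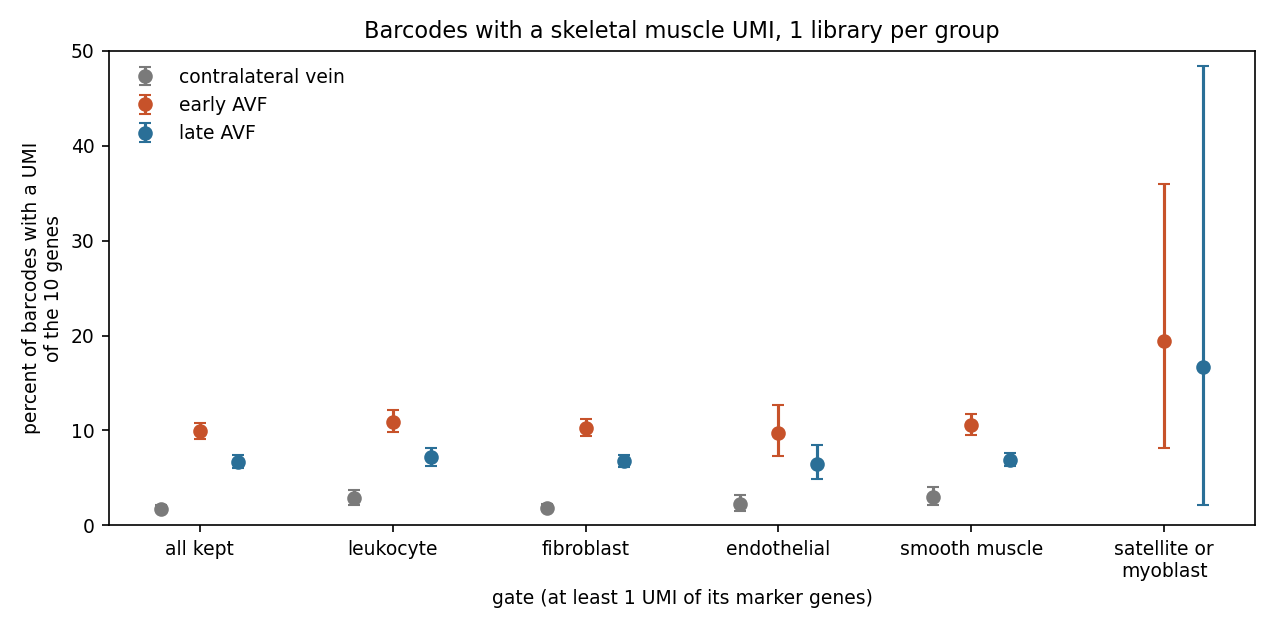
Percent of kept barcodes with at least 1 UMI of the 10 genes, over all barcodes and within each marker gate, for 3 libraries with exact 95% binomial intervals. Within each library the leukocyte share is at or above the share of all barcodes, and the satellite gate, with 36 early and 12 late barcodes, has the widest intervals.

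Few barcodes held several of these UMIs. At least 3 were present in 11, 21 and 18 barcodes, and at least 10 in 1, 5 and 0, where 0 of 5821 late barcodes allows a share of up to 0.0634%. The 10 barcodes with most held 31.5% of the UMIs in the contralateral library, 26.3% in the early and 9.44% in the late library. The first early barcode had 91 (50 of *Acta1*, 19 of *Myl1*, 14 of *Tnnt3* and 7 of *Atp2a1*) and passed the satellite, leukocyte, fibroblast and smooth muscle gates at once, and whether it held more than 1 cell was not tested. The first contralateral and late barcodes that were kept had 15 of *Myl1* and 7 of *Tnni2*.

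The satellite and myoblast gate (*Pax7*, *Myf5*, *Myod1*, *Cdh15* or *Myog*) held 0, 36 and 12 kept barcodes. The limits on genes and mitochondrial share removed some of the barcodes richest in the 10 genes: 2 contralateral barcodes of this gate (27 and 4 UMIs, 10343 and 9850 genes seen) and 3 early ones (38, 23 and 13 UMIs) among the 10 highest barcodes of their libraries. In the early library 7 of the 36 had a UMI of the 10 genes (19.4%, 8.19 to 36.0%), and together they had 122 UMIs, or 146 CPM (121 to 174), against 13.8 CPM in leukocytes (12.6 to 15.0). With barcodes thinned to 2000 UMIs as above, 1 of 32 early barcodes of this gate (3.12%, 0.0791 to 16.2%) and 0 of 11 late ones (up to 28.5%) had a UMI of the 10 genes. So few barcodes cannot show whether the share exceeded that of early leukocytes at equal depth (2.84%), which lies inside the early interval. The first barcode gave 91 of the 122 and, holding a *Ptprc* UMI, also counted among the leukocytes, and median depth was 26423 UMIs in this gate. In the late library 2 of 12 barcodes had 4 UMIs, or 15.0 CPM (4.08 to 38.3). *Myog* had 118 UMIs in 11 early barcodes, *Pax7* 30 in 7 and *Myod1* 36 in 10, and in the late library 2, 7 and 8 UMIs in 2 barcodes each. Of the satellite cell genes called in bulk, *Myf6* had 0 UMIs in each library. *Msc* had UMIs in 33 contralateral, 51 early and 184 late barcodes, more than the gate held in each library.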

How the data were processed

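The authors deposited a table of raw gene counts for 25 bulk libraries and UMI count matrices for 3 single-cell libraries, the latter made with Cell Ranger 6.0.2 per the file headers. How bulk reads were aligned and counted was not stated in them. From these counts, the 12673 genes whose DESeq2-normalized counts averaged 100 or more were fitted in edgeR 4.0.16 (R 4.3.3) with TMM scaling and 1 mean per group, with p adjusted over all genes tested, and again in DESeq2 1.42.0. CPM used all 25 libraries. Single-cell counts, levels and intervals were computed with pandas 2.3.3, scipy 1.17.1 and numpy 2.4.6 under Python 3.11.15, and plots with matplotlib 3.10.9. Gene places came from GENCODE M21. The fit was tested on simulated data. Besides the 10 genes, those named were the 15 most like the 10 and some of each list, chosen after their values were seen. Doublets were not called. The 10 genes and the lists were chosen with earlier results of these data known. Other scalings, filters, tools and thresholds, sex as a covariate, females alone and leaving out each library were tried. The labels tied no contralateral vein to the mouse of an AVF, so no pairs were fitted.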

Additional observations from a re-analysis of the deposited data

Results flagged for a closer look

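In 3 of the 44 groups of bulk libraries tested (each of the 10 genes and their sum, in each of 4 groups), 1 vessel stood far from the others, with its gap to the nearest vessel above the 95% critical value for a group of that size. Chance alone marks about 1 in 20 groups. All 3 were contralateral veins. *Myh1* was at 31.4 CPM in vein 27 and between 0 and 2.24 CPM in the other 6 veins. *Myh4* was at 0.870 CPM in vein 27 and between 0 and 0.250 CPM in the others. *Tnnt3* was at 9.11 CPM in vein 34 and between 0 and 1.5 CPM in the others. The gap took up 0.662, 0.644 and 0.604 of the whole range on the log2(CPM + 1) scale. No AVF group had such a vessel.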

How the results depend on the processing

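Counts of all genes called against contralateral veins in early, mid and late AVFs (1599, 767 and 676) were 2440, 1418 and 1294 with DESeq2, 3803, 2823 and 2696 with the filter of edgeR's filterByExpr, 3938, 2728 and 2567 with no filter beyond 1 count, 2520, 1421 and 1304 at an adjusted p of 0.05, and 327, 192 and 173 with females alone, which leaves fewer samples. With 1 library left out the late count ran from 432 to 889.

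Mid against early AVFs (1 gene) gave 474 genes with DESeq2, 482 at an adjusted p of 0.05, and 0 with DESeq2 size factors in edgeR, filterByExpr, sex as a covariate or females alone, and 0 to 305 with 1 library left out. Late against early AVFs (381) gave 753 with DESeq2, 795 at an adjusted p of 0.05, 208 with no filter, 0 with females alone, and 32 to 549 with 1 library left out. Late against mid AVFs (0) gave 1 with DESeq2.

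Of the other skeletal muscle genes, those called higher in early, mid and late AVFs (24, 26 and 23) numbered 37, 40 and 38 with filterByExpr and 5, 2 and 2 with females alone, and 40 and 37 in mid and late AVFs with no filter. Every count above 0 of a single list called higher against veins fell with females alone, and satellite cell genes (2, 2 and 1) reached 8, 8 and 6 under other filters. With 1 library left out the late count of all other muscle genes ran from 7 to 25. Late against early AVFs (0) gave 1 at an adjusted p of 0.05, and 0 to 1 with 1 library left out. The sex by group test (0 of the 10 genes) gave 6 with no filter.

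In single cells, the share of contralateral barcodes with a UMI (1.77%) was 1.21% over all barcodes. The contralateral and late levels (5.65 and 5.06 CPM of UMIs) were 6.50 and 4.95 over all barcodes, where their intervals no longer overlapped. The contralateral level there included single barcodes of 30 and 27 UMIs. The early level (13.0 CPM of UMIs) was 10.9 without *Acta1* and 11.5 over all barcodes, and the early share (9.89%) was 8.84% and 10.9%. The shares thinned to 2000 UMIs, an alternative chosen after seeing the data, were 0.982, 2.43 and 1.12%. For each of these differences the cause was not tested.

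Of the settings tried on results that answer a comparison, 100 of the values under other settings stayed within the spread or within 1.5 times the count and 44 did not, and 466 against 34 with 1 library left out. Of the fitted values of the 10 genes, 232 under other settings and 731 with 1 library left out moved by less than the spread, and 8 and 19 by more. The late value of *Myh2* changed sign under the 6 settings given with it.

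Depth and design set limits. A bulk library resolved down to between 0.0588 and 0.187 CPM. With 5 to 8 vessels per AVF time and up to 1054-fold spread, differences between times were not detectable for the 10 genes. Single-cell libraries were 1 per group, so spread between pools could not be measured, and their harvest days were not those of bulk. Sex was unequal across groups.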
